A study of Rattus norvegicus with 54 samples.

Results

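Solute carriers are membrane proteins that move small molecules and ions across the cell surface and across the membranes of organelles. The transcripts followed here are the 34 probe sets, for 33 genes, that the authors' lists of selected probe sets name as solute carriers by title or by symbol. Slc3a1 was not among them. The array design held 15866 probe sets that are not controls. A probe set is a group of short array probes against 1 transcript, and only Slc1a3 was measured by 2 of them, here called 1368565_at and 1371130_at. Of the 34, 30 stood in the authors' gubernaculum list of 3589 probe sets, 12 in their LE/wt list of 1023 and 1, Slc41a3, in their testis list of 349. The authors chose all of these lists on the same arrays, so a high share of changed members is not independent evidence of change.

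The gubernaculum is the cord that guides the testis during its descent. RNA came from LE/orl rats, the cryptorchid strain of the study, in which testes fail to descend, and from LE/wt, its wildtype strain. Left gubernacula of male LE/orl fetuses were taken at gestational day (GD) 18, 19 and 20 (n = 4 each), and right ones at GD20 (n = 3). Male LE/wt gubernacula were taken in the same way and number. Gubernacula of female LE/wt fetuses at GD18 (n = 4) combined both sides of a fetus. Left testes of LE/orl and LE/wt fetuses were taken at GD17 and GD19 (n = 5 each). Each male array held a single organ of 1 fetus, and the labels name no treatment. At GD20 the left and right organ that carry the same letter within a strain came from the same fetus.

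The carriers fall into families by what they carry. Slc30 members move zinc out of the cytosol into vesicles, the Golgi or out of the cell, and Slc39 members move zinc into the cytosol. Family 25 sits mostly in the inner mitochondrial membrane, family 16 carries lactate and other monocarboxylates, family 2 carries sugars, and family 35 supplies nucleotide sugars to the Golgi and the endoplasmic reticulum. Muscle, which grows in the gubernaculum before birth, is known for its demand for glucose, lactate exchange and mitochondrial ATP export. By substance the members were 8 probe sets for metals, 7 for nucleosides and nucleotide sugars, 5 for mitochondrial and peroxisomal carriers, 4 for amino acids and peptides, 3 for sugars, 3 for ion exchange, 2 for monocarboxylates and 2 for phosphate.

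Metal carriers are the largest class, and the promoters of 3 zinc carriers with opposite strain differences are shown. The sequences are RefSeq's for assembly GRCr8, 250 bases before to 50 bases after the annotated start, on the gene's strand. Slc30a4 (chr3:130228839-130229138, minus strand) and Slc30a5 (chr2:33709849-33710148, minus strand) were higher in LE/orl than in LE/wt at GD18. Slc30a6 (chr6:26802607-26802906, minus strand) was lower. Capitals mark every match to TGCACNC or TGCGCNC on either strand, the core of the metal response element that the zinc sensor Mtf1 binds.
Slc30a4: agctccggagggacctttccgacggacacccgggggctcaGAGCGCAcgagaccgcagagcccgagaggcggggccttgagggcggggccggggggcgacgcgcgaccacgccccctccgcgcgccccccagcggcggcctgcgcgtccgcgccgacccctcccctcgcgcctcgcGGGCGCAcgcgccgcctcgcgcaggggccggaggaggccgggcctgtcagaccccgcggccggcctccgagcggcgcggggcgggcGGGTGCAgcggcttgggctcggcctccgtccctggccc
Slc30a5: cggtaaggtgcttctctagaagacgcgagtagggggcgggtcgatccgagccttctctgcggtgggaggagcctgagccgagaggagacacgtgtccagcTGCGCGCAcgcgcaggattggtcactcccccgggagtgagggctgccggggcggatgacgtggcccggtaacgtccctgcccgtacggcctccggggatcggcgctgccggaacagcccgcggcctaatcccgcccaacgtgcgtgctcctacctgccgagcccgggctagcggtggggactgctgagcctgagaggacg
Slc30a6: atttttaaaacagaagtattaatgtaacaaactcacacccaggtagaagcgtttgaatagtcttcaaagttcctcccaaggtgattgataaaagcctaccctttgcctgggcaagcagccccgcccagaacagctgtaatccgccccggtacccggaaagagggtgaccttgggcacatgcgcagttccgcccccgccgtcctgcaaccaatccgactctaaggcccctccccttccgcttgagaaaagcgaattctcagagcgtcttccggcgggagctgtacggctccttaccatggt
Slc30a4 held 3 matches and Slc30a5 held 2, which overlap each other. Slc30a6 held 0. Slc30a9 and Slc39a10, which like Slc30a4 and Slc30a5 were higher in LE/orl at GD18, also held 0. Such a core stood in 24.2% of all 33469 promoters in the table and in 11 of the 27 member genes found there. The GC box GGGCGG stood in 33.1% of all promoters and in 23 of these 27. A match is a run of letters and was not tested as a binding site.

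Values are log2 expression values, so a difference of 1 is a 2-fold change. They are compared between arrays for the same probe set and never between probe sets. Probe sets entered the tests with a log2 value of at least 5 on at least 3 gubernaculum arrays, or on at least 5 testis arrays. This left 8872 probe sets in gubernaculum, all 34 members among them, and 8013 in testis with 24 members. A probe set was called at a Benjamini-Hochberg adjusted p under 0.05 over all probe sets of the tissue. The median of an array was 4.92 to 5.18 for gubernaculum and 4.76 to 4.85 for testis. The lowest correlation between replicates was 0.962 in gubernaculum and 0.992 in testis.

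The arrays carry control probes for both ends of the GAPDH and beta-actin transcripts, and these differed between the strains in a way that bears on every gubernaculum result. The signal at the 5′ end relative to the 3′ end, here called the 5′ index, lay between −7.23 and −6.06 (log2) on 13 of the 15 LE/orl gubernaculum arrays, and between −4.73 and −3.46 on the 19 LE/wt ones. LE/orl replicate A at GD18 and replicate D at GD19 had −4.16 and −4.32, inside the LE/wt range. The authors' deposited means left those 2 arrays out: recomputed means of 30 of 30 listed members matched without them and 0 of 30 with them. The 2 arrays also go against their labels. Over all 8872 probe sets tested, the library labelled LE/orl replicate A at GD18 differed by a median of 0.517 (log2) from the mean of the other LE/orl arrays of its day, and by 0.232 from that of LE/wt at GD20 left, the nearest group. The library labelled LE/orl replicate D at GD19 differed by 0.526 from its own group and by 0.297 from female LE/wt at GD18, its nearest. All 32 of the other gubernaculum arrays lay nearest to a group of their own strain and sex. Whether these 2 arrays represent LE/orl of their day was not tested, so results are given with and without them. Without them every LE/orl gubernaculum array had the weak 5′ signal and no LE/wt array did, so strain and 5′ signal cannot then be told apart on any day. The testis index was −1.53 to −0.999 in LE/orl and −1.45 to −1.07 in LE/wt.

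The first comparison asks which carriers differ between cryptorchid and wildtype gubernacula on each day. GD18 had 16 members higher and 5 lower in LE/orl, and so did GD19. At GD20, 10 were higher and 9 lower on the left side, and 9 higher and 5 lower on the right. Slc15a4 and Slc29a3 were higher in all 4 comparisons, and Slc25a4 was lower in all 4. The left and right comparisons at GD20 share fetuses, so they are not independent of each other. Slc1a3 probe set 1371130_at is also counted as higher in all 4, but it reached the minimum of 5 on 13 arrays, all LE/orl, and so entered the test only through the group where it is high. Carriers of metals, phosphate, nucleosides and nucleotide sugars made up 10 of the 16 that were higher at GD18 and 10 of the 16 at GD19. These classes are large: metals have 8 probe sets, phosphate 2, and nucleosides and nucleotide sugars 7. They also held lower members at GD18 and GD19, 2 for metals and 2 for nucleosides and nucleotide sugars on each day. Whether their share exceeds that of the other classes was not tested. The Slc35 members are classed by family, and only the title of Slc35a1 names a substance. Both monocarboxylate carriers were among those lower at GD20.

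Called members were 21 of 34 at GD18 (61.8%), against 51.3% of all probe sets tested (27.2% higher, 24.1% lower) and 76.6% of those on the authors' lists. For GD19 the count was 21 of 34, against 52.5% of all (26.6% higher, 25.9% lower) and 76.3% of the listed ones. On the left at GD20 it was 19 of 34, against 47% of all (20.1% higher, 26.9% lower) and 62.8% of the listed ones. On the right it was 14 of 34, against 38.4% of all (18.1% higher, 20.3% lower) and 54.3% of the listed ones. For the mean over the 3 days on the left, 29 members were called (20 higher, 9 lower), against 68.5% of all (34.8% higher, 33.7% lower) and 86.4% of the listed ones. In each case the members' share lay above that of all probe sets and below that of the listed ones. The members' median difference was 0.43 at GD18, 0.53 at GD19, 0.07 at GD20 left and 0.08 at GD20 right. Over all probe sets tested it was 0.06, 0.02, −0.09 and −0.01. After quantile normalisation the split at GD20 left was 11 higher and 6 lower, and the median over all probe sets tested was 0.006. No share of all probe sets called is given for that setting, so this split is not read against a background.

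Without both arrays that stand apart, 24 members were called at GD18 (17 higher, 7 lower), 20 of the 21 among them, and 24 at GD19 (17 higher, 7 lower), all 21 among them. The call lost at GD18 was that of Slc39a10. Replicate A at GD18 lay outside the LE/wt range of its day for 18 of the 21 called members, on the side of the call, and for 11 of the 13 not called, 7 above and 4 below. Its nearest group was LE/wt at GD20 left, and 23 members were called in LE/wt between GD18 and GD20. Its place therefore cannot tell LE/orl from that group. With the 5′ index as a covariate, 15 members were called at GD18 (12 higher, 3 lower) and 14 at GD19 (11 higher, 3 lower). At GD20 the same fit called 0 members on either side, and 46 and 41 of all 8872 probe sets on the left and on the right. For GD18 and GD19 no share of all probe sets is given without both arrays or with the covariate. Those counts are therefore not read against a background. Within LE/orl the index leaves the range of −7.23 to −6.06 only on the 2 arrays that stand apart, and the covariate fit leans on them.

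**Figure D1:**
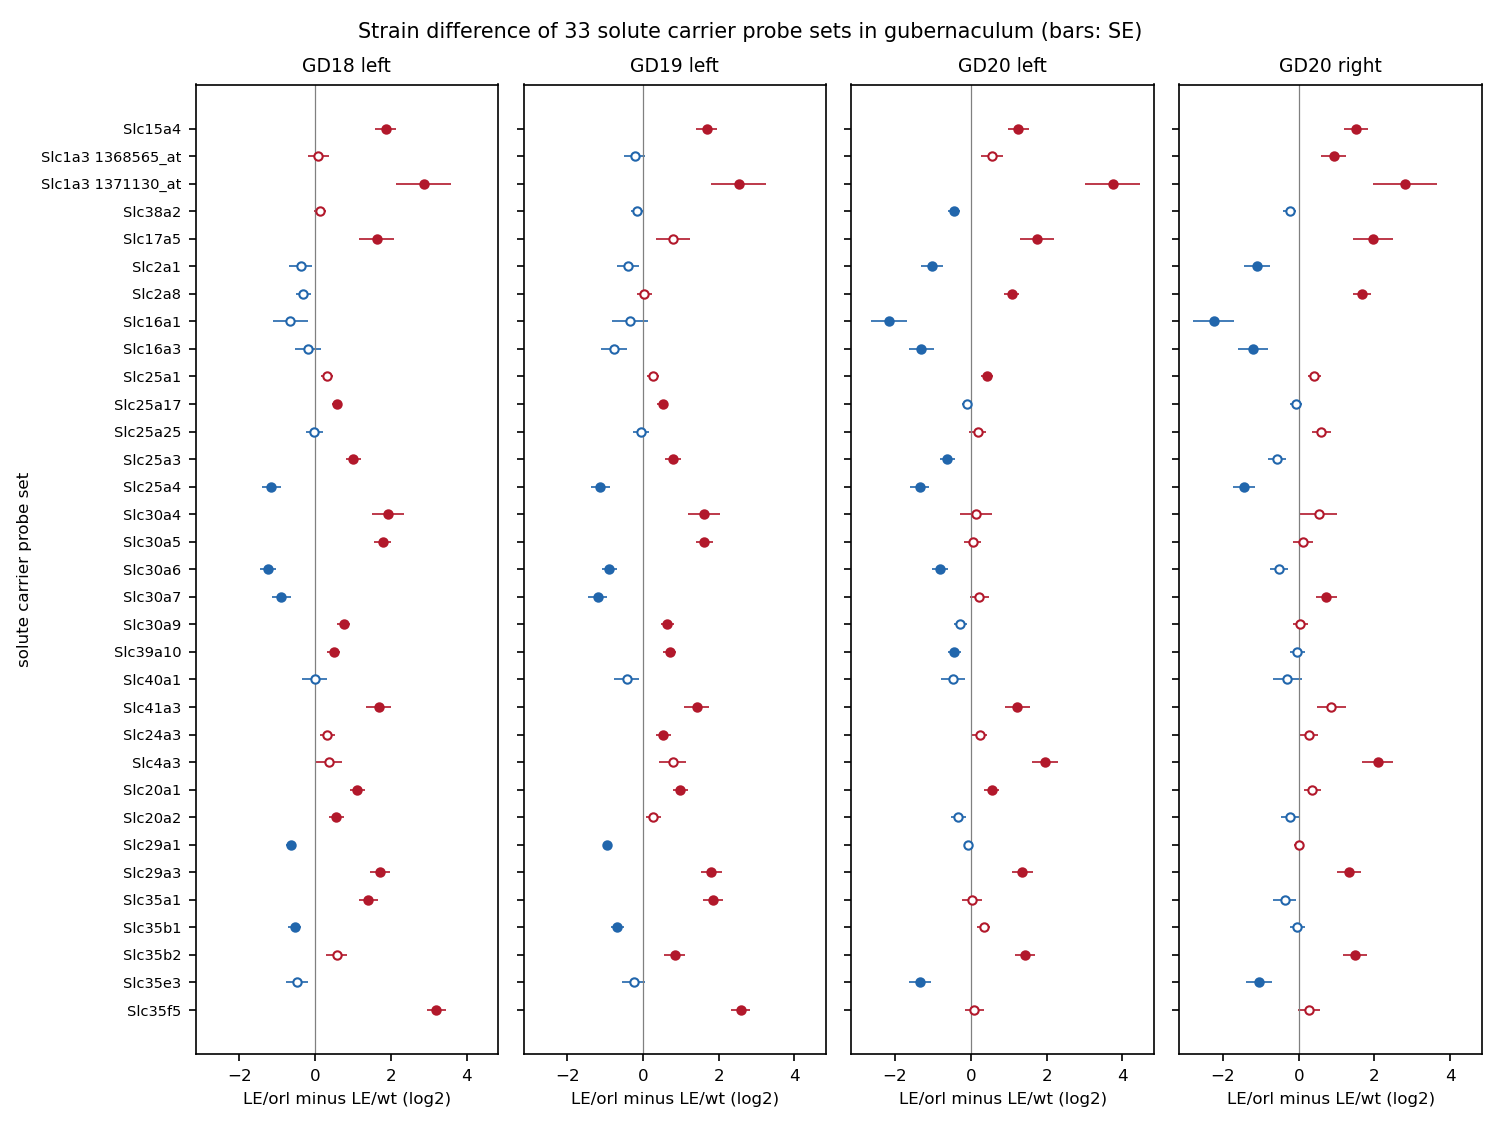
Strain difference of 33 of the 34 solute carrier probe sets (LE/orl minus LE/wt, log2) in the 4 gubernaculum comparisons, with bars of 1 SE, filled points called at an adjusted p under 0.05 and open points not called. Slc35f5 lies at 3.20 at GD18 and 2.58 at GD19 and near 0 at GD20, while Slc15a4 and Slc29a3 stay to the right of 0 and Slc25a4 to the left in all 4 panels.

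Zinc carriers split in 2 directions at GD18 and GD19. Slc30a4, Slc30a5, Slc30a9 and Slc39a10 were higher in LE/orl than in LE/wt, and Slc30a6 and Slc30a7 were lower. Slc30a5 and Slc30a6 encode partners that form a pair in the early secretory pathway and load zinc into enzymes there, and their transcripts differed in opposite directions. Slc30a5 measured 8.65, 8.55, 8.85 and 8.34 in LE/orl at GD18, against 6.19, 6.85, 6.85 and 7.32 in LE/wt. The groups did not overlap, and the difference was 1.79 ± 0.22 (SE), or 3.46-fold, with an adjusted p of 2.17e-07. At GD19 it measured 8.63, 8.69, 9.44 and 8.69 in LE/orl, against 7.68, 7.19, 7.42 and 6.68 in LE/wt, again without overlap. By GD20 left the strains met, at 8.83 ± 0.16 in LE/orl and 8.78 ± 0.10 in LE/wt (SD, n = 4 each).

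Slc30a4, which fills vesicles with zinc, showed the same course with more scatter. It measured 7.60, 8.16, 7.57 and 8.32 in LE/orl at GD18, against 5.11, 5.91, 6.12 and 6.82 in LE/wt. That difference was 1.92 ± 0.42 (adjusted p = 0.000412), and with the 5′ index as a covariate it was 1.16 with an adjusted p of 0.108. At GD19 the groups overlapped: LE/orl had 8.60, 8.13, 8.00 and 6.36, and LE/wt had 6.35, 5.15, 7.44 and 5.65. The lowest LE/orl value there was replicate D, 1 of the 2 arrays that stand apart. At GD20 left the means were 8.22 ± 0.32 in LE/orl and 8.09 ± 0.07 in LE/wt.

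Slc30a6 measured 7.98, 7.12, 6.79 and 7.27 in LE/orl at GD18, against 8.47, 8.73, 8.48 and 8.44 in LE/wt. Every LE/orl array lay below every LE/wt array, with a difference of −1.24 ± 0.21 (adjusted p = 1.82e-05). The 2 highest LE/orl values over GD18 and GD19, 7.98 and 7.87, came from the arrays that stand apart. At GD20 left LE/orl had 6.97, 7.30, 6.65 and 7.69, and LE/wt had 7.88, 7.91, 8.07 and 8.00. On the right it was not called. With the covariate the difference was −0.62 at GD18 (adjusted p = 0.0443) and −0.23 at GD19 (adjusted p = 0.498).

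Slc30a7, a zinc carrier of the Golgi, measured 6.65, 6.96, 6.73 and 7.20 in LE/orl at GD18, against 7.66, 7.74, 7.63 and 8.07 in LE/wt. At GD19 it measured 6.89, 6.31, 7.12 and 5.98 in LE/orl, against 7.95, 7.80, 7.40 and 7.94 in LE/wt. The groups were apart on both days, by −0.89 ± 0.25 and −1.20 ± 0.25 (adjusted p = 0.00387 and 0.000222). On the right at GD20 its direction was the other one, with 7.10, 6.81 and 7.55 in LE/orl, against 6.87, 5.98 and 6.41 in LE/wt (0.73 ± 0.29, adjusted p = 0.0444). The groups overlapped there.

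Smaller shifts were seen for Slc39a10, which imports zinc at the cell surface, and for Slc30a9, a carrier linked to mitochondrial zinc. Slc39a10 was higher in LE/orl by 0.50 ± 0.17 at GD18 and by 0.70 ± 0.17 at GD19, and lower by −0.43 ± 0.17 at GD20 left (adjusted p = 0.0156, 0.00108 and 0.0384). Without both arrays that stand apart its GD18 difference was 0.36 (adjusted p = 0.0677). At GD20 left it measured 8.97, 9.19, 8.74 and 9.26 in LE/orl, against 9.57, 9.49, 9.52 and 9.31 in LE/wt. Slc30a9 was higher by 0.76 ± 0.17 at GD18 and by 0.65 ± 0.17 at GD19 (adjusted p = 0.000431 and 0.00201). At GD20 left its groups did not overlap but the test did not call them, with 8.08 to 8.24 in LE/orl and 8.41 to 8.58 in LE/wt.

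**Figure D2:**
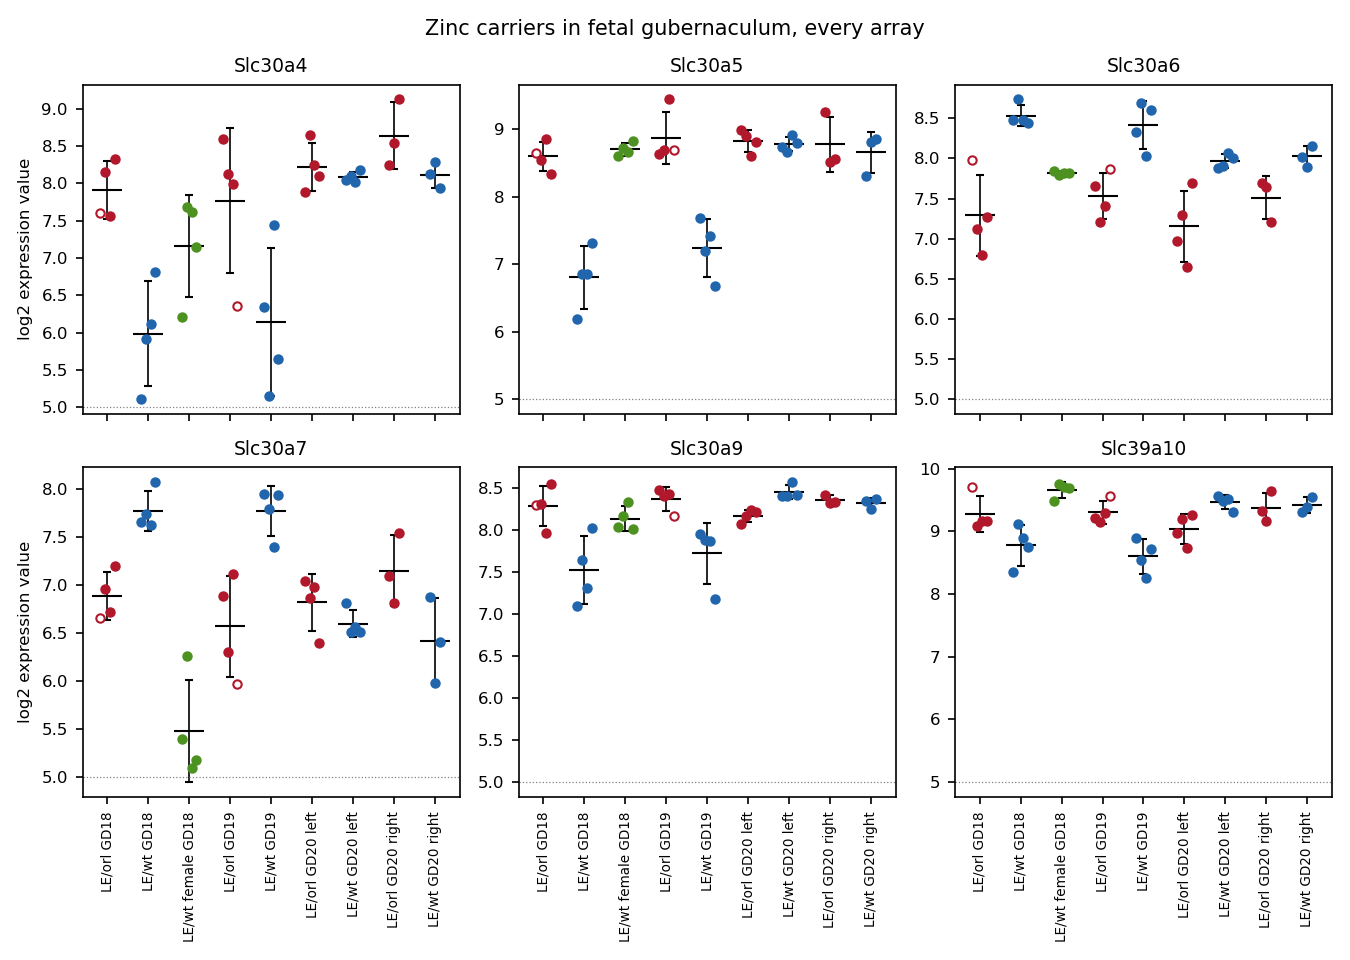
Log2 expression of 6 zinc carriers on each gubernaculum array, in groups along the horizontal axis, with black bars for the mean ± SD, open circles for the LE/orl arrays that stand apart (A of GD18, D of GD19), and a dotted line at the log2 minimum of 5. For Slc30a4 and Slc30a5 the male LE/wt groups at GD18 and GD19 are low and those at GD20 meet LE/orl, while for Slc30a7 the female group is lowest.

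Of the other metal carriers, Slc41a3, of a family of magnesium carriers, was higher in LE/orl on all 3 days on the left. It measured 8.90, 10.14, 10.37 and 9.87 in LE/orl at GD18, against 8.45, 7.93, 8.06 and 8.11 in LE/wt. The difference was 1.68 ± 0.33 at GD18, 1.42 ± 0.33 at GD19 and 1.22 ± 0.33 at GD20 left (adjusted p = 0.00013, 0.000766 and 0.00362). Replicate A, with 8.90, was the lowest of the 4 LE/orl arrays at GD18 and lay above LE/wt of that day. It also lay within the 8.49 to 8.93 of LE/wt at GD20 left, its nearest group over all probe sets. Slc40a1, ferroportin, the exporter of iron, did not pass the test between strains in any of the 4 comparisons. Its probe set was matched to the gene at the weakest annotation grade, E, as were those of Slc29a3, Slc35a1 and Slc35b2.

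Among the carriers of amino acids and peptides, Slc15a4, which moves histidine and short peptides out of lysosomes, was higher in LE/orl on all days. At GD18 it measured 6.48, 7.77, 7.91 and 7.63 in LE/orl, against 5.24, 5.57, 5.43 and 6.10 in LE/wt. At GD20 left it measured 7.57, 7.60, 7.15 and 7.72 in LE/orl, against 6.03, 6.29, 6.39 and 6.33 in LE/wt. Neither pair of groups overlapped. The difference was 1.86 ± 0.28 at GD18, 1.69 ± 0.28 at GD19, 1.25 ± 0.28 at GD20 left and 1.51 ± 0.32 at GD20 right (adjusted p = 3.36e-06, 1.24e-05, 0.000592 and 0.000781). The lowest LE/orl values, 6.48 at GD18 and 6.76 at GD19, came from the 2 arrays that stand apart, and both exceeded every LE/wt array of their day. Their nearest groups were also higher than male LE/wt at GD18 and GD19 (means 5.58 and 5.62). The mean was 6.26 in LE/wt at GD20 left and 7.16 in LE/wt females. The place of the 2 arrays therefore cannot tell LE/orl from those groups. Without the 2 arrays the difference was 2.19 at GD18 and 1.87 at GD19. With the covariate it was 1.13 at GD18, 0.92 at GD19, 0.37 at GD20 left and 0.59 at GD20 right (adjusted p = 0.00997, 0.0374, 0.788 and 0.833).

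The 2 probe sets of Slc1a3, a high-affinity glutamate transporter known from glia, went separate ways. Probe set 1371130_at measured 2.96, 5.88, 8.43 and 6.47 in LE/orl at GD18, against 3.06, 3.21, 2.93 and 3.06 in LE/wt. At GD19 it measured 5.84, 6.28, 7.26 and 2.69 in LE/orl, against 2.84, 3.04, 3.20 and 2.88 in LE/wt. The values 2.96 and 2.69 belong to the 2 LE/orl arrays that stand apart and sit at the LE/wt level. The other 13 LE/orl gubernaculum arrays lay between 5.38 and 8.43, and no LE/wt array exceeded 3.42, below the minimum of 5. With every LE/wt value under the minimum, no size is given for its strain difference.

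Probe set 1368565_at of the same gene was not called between strains at GD18, with 8.72, 8.34, 7.87 and 7.91 in LE/orl and 7.39, 8.68, 8.21 and 8.20 in LE/wt. It was called only on the right at GD20, where LE/orl had 7.99, 8.07 and 8.44 and LE/wt had 7.27, 7.09 and 7.37. Slc38a2, a sodium-coupled carrier of neutral amino acids, was lower in LE/orl at GD20 left. It measured 10.83, 10.75, 10.63 and 10.79 in LE/orl, against 11.25, 11.25, 11.22 and 11.06 in LE/wt. That was a difference of −0.45 ± 0.15 (adjusted p = 0.0174).

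Of the sugar carriers, the glucose transporters Slc2a8 and Slc2a1 were called between strains at GD20 and not at GD18 or GD19. Slc17a5 was called at GD18 as well. Slc2a8, a glucose transporter of inner membranes, measured 5.95, 6.44, 5.96 and 6.25 in LE/orl at GD20 left, against 4.67, 4.72, 5.64 and 5.24 in LE/wt. On the right it measured 5.99, 6.50 and 6.81 in LE/orl, against 4.70, 4.73 and 4.87 in LE/wt. LE/orl was the higher group without overlap on both sides, by 1.08 ± 0.20 and 1.67 ± 0.23 (adjusted p = 0.000119 and 2.1e-05). Slc2a1, GLUT1, the glucose transporter that most cells carry, was lower in LE/orl, with 5.79, 7.35, 6.80 and 6.14 on the left, against 7.64, 7.80, 7.45 and 7.25 in LE/wt, where LE/orl replicate B overlapped LE/wt (−1.02 ± 0.29, adjusted p = 0.00561). On the right it measured 6.30, 6.65 and 6.85 in LE/orl, against 7.79, 7.49 and 7.82 in LE/wt (−1.10 ± 0.34, adjusted p = 0.0116).

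Slc17a5, sialin, exports sialic acid from lysosomes. It measured 7.68, 8.75, 7.69 and 8.20 in LE/orl at GD20 left, against 6.36, 6.27, 6.37 and 6.37 in LE/wt, a difference of 1.74 ± 0.45 (adjusted p = 0.00257). At GD18 it measured 6.10, 8.30, 7.80 and 8.17 in LE/orl, against 5.78, 5.76, 6.18 and 6.15 in LE/wt. Replicate A, with 6.10, lay within the LE/wt range, and at GD19 replicate D, with 5.03, lay below all LE/wt arrays of that day. Without both arrays the difference was 2.12 at GD18 and 1.48 at GD19 (adjusted p = 4.94e-08 and 1.47e-05), against 1.63 and 0.79 with them (adjusted p = 0.00366 and 0.146). With the covariate the difference at GD20 left was −0.36 (adjusted p = 0.858).

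Both lactate carriers were lower in LE/orl at GD20. Slc16a1, MCT1, measured 7.30, 6.58, 6.55 and 6.35 in LE/orl on the left, against 8.49, 9.05, 8.74 and 9.15 in LE/wt. On the right it measured 7.10, 5.99 and 6.84 in LE/orl, against 8.95, 9.08 and 8.62 in LE/wt. The groups were apart on both sides, by −2.16 ± 0.47 and −2.25 ± 0.54 (adjusted p = 0.000511 and 0.00216), which left LE/orl at 0.223 and 0.211 of the LE/wt level. Slc16a3, MCT4, known for export of lactate from glycolytic muscle, measured 6.60, 7.15, 7.04 and 6.53 in LE/orl on the left, against 8.17, 8.63, 7.92 and 7.81 in LE/wt (−1.30 ± 0.34, adjusted p = 0.00279). On the right its groups overlapped, with 6.35, 7.19 and 6.32 in LE/orl and 6.99, 8.69 and 7.82 in LE/wt.

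Neither lactate carrier was called between strains at GD18 or GD19. The LE/orl arrays that stand apart had the highest Slc16a1 values of their groups: replicate A measured 8.68 at GD18, beside 6.68, 7.03 and 5.94, and replicate D measured 8.91 at GD19, beside 6.40, 6.61 and 8.07. Without both arrays Slc16a1 was lower at GD18 (−1.18, adjusted p = 0.0083) and Slc16a3 at GD19 (−1.20, adjusted p = 0.000963). With the index as a covariate the GD20 left difference of Slc16a1 was −0.73 (adjusted p = 0.748), and that of Slc16a3 was −0.10 (adjusted p = 0.97). Their partner Bsg, basigin, which brings both to the cell surface, was lower in LE/orl by −3.26 ± 0.51 at GD18 and −2.86 ± 0.51 at GD20 left (adjusted p = 7.98e-06 and 8.63e-05). Of 7 probe sets for partners of carriers, only 1 was called at GD18, and 6 were lower at GD20 left.

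Of the mitochondrial carriers, Slc25a4 exchanges ADP for ATP and is the form of heart and skeletal muscle, and Slc25a3 brings in phosphate for ATP synthesis. Slc25a4 was lower in LE/orl throughout. At GD20 left it measured 11.14, 11.71, 12.04 and 11.20 in LE/orl, against 12.88, 12.81, 12.94 and 12.85 in LE/wt, and on the right 11.37, 11.45 and 11.38 in LE/orl, against 12.72, 12.87 and 12.92 in LE/wt. The differences were −1.35 ± 0.25 and −1.44 ± 0.29 (adjusted p = 0.000122 and 0.000581). At GD18 LE/orl had 12.80, 11.53, 11.17 and 11.38, and LE/wt had 12.62, 13.01, 12.91 and 12.98, so replicate A with 12.80 sat inside LE/wt. At GD19 replicate D measured 12.56, just under the lowest LE/wt array with 12.83, and the other LE/orl arrays 11.51, 11.74 and 11.44. Without both arrays the differences were −1.52 at GD18 and −1.38 at GD19. With the covariate the differences were −0.05 at GD19 and −0.12 at GD20 left (adjusted p = 0.878 and 0.925).

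Slc25a3 turned round between the days. At GD18 it measured 13.01, 12.45, 12.57 and 12.53 in LE/orl, against 11.56, 11.63, 11.63 and 11.69 in LE/wt. LE/orl was higher by 1.01 ± 0.20 (adjusted p = 0.000148), and its highest array was replicate A, which stands apart; without both arrays the difference was 0.89 (adjusted p = 0.000333). At GD20 left it measured 12.52, 12.61, 12.82 and 12.46 in LE/orl, against 13.33, 13.34, 13.21 and 13.00 in LE/wt, a difference of −0.62 ± 0.20 (adjusted p = 0.0128). Slc25a17, a carrier of peroxisomes, was higher in LE/orl by 0.58 ± 0.14 at GD18 and 0.52 ± 0.14 at GD19 (adjusted p = 0.000816 and 0.00205). Slc25a1, which exports citrate, was higher at GD20 left (0.43 ± 0.15, adjusted p = 0.0222). Slc25a25, a calcium-regulated carrier of ATP-magnesium, was called in none of the 4 strain comparisons.

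Of the ion exchangers, Slc4a3 trades chloride for bicarbonate and Slc24a3 trades sodium for calcium and potassium. Slc4a3 was higher in LE/orl at GD20, with 6.86, 5.85, 6.22 and 7.43 on the left, against 4.56, 4.48, 4.95 and 4.54 in LE/wt. On the right it measured 6.63, 5.96 and 6.83 in LE/orl, against 4.39, 4.26 and 4.52 in LE/wt. All LE/wt arrays of that day lay under the log2 minimum of 5. The differences were 1.96 ± 0.35 and 2.09 ± 0.41 (adjusted p = 8.43e-05 and 0.000452). At GD18 it was not called, and replicate A with 4.42 was below every LE/wt array. Slc24a3 was called only at GD19 (0.54 ± 0.20, adjusted p = 0.0267), and without both arrays that stand apart at GD18 too (0.58, adjusted p = 0.00625).

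Both sodium-dependent phosphate carriers were higher in LE/orl at GD18. Slc20a1 measured 10.55, 11.07, 10.93 and 10.92 in LE/orl, against 9.63, 9.62, 9.85 and 9.90 in LE/wt. The difference was 1.11 ± 0.19 at GD18, 0.98 ± 0.19 at GD19 and 0.56 ± 0.19 at GD20 left (adjusted p = 2.98e-05, 0.00013 and 0.02), each without overlap. Slc20a2 measured 8.32, 8.27, 8.09 and 7.86 in LE/orl at GD18, against 7.09, 8.08, 7.50 and 7.59 in LE/wt. Its groups overlapped (0.57 ± 0.20, adjusted p = 0.0183), and no later day was called.

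Slc35f5 had the largest strain difference among the members at GD18 and at GD19 whose groups did not overlap. It belongs to family 35 by number, and the title gives no substance. At GD18 it measured 9.42, 9.88, 9.48 and 9.73 in LE/orl, against 7.34, 6.14, 6.05 and 6.17 in LE/wt. The difference was 3.20 ± 0.25, or 9.20-fold (adjusted p = 1.83e-10). At GD19 it measured 9.82, 9.80, 9.35 and 9.41 in LE/orl, against 6.57, 6.58, 7.80 and 7.11 in LE/wt (2.58 ± 0.25, adjusted p = 5.62e-09). The strains met at GD20 left, with 9.67, 9.56, 9.22 and 9.69 in LE/orl and 9.52, 9.30, 9.52 and 9.41 in LE/wt. Without both LE/orl arrays that stand apart the GD18 difference was 3.27, and with the covariate 2.86.

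Slc35a1, which brings CMP-sialic acid into the Golgi, followed the same course. It measured 11.12, 11.04, 10.97 and 10.61 in LE/orl at GD18, against 9.12, 9.39, 9.60 and 9.99 in LE/wt. By GD19 it stood at 10.85, 10.85, 11.33 and 11.95 in LE/orl, against 9.30, 9.42, 9.48 and 9.41 in LE/wt. The groups were apart by 1.41 ± 0.26 and 1.84 ± 0.26 (adjusted p = 6.56e-05 and 1.89e-06), and at GD20 left the means were 10.95 ± 0.47 in LE/orl and 10.92 ± 0.07 in LE/wt.

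Slc29a3 and Slc29a1 carry nucleosides, the first in lysosomes and the other at the cell surface, and they differed in opposite directions. Slc29a3 measured 7.08, 8.44, 8.35 and 7.81 in LE/orl at GD18, against 6.02, 6.09, 6.36 and 6.35 in LE/wt. On GD19 the values were 7.72, 7.94, 7.72 and 8.18 in LE/orl, against 6.13, 6.09, 5.97 and 6.13 in LE/wt. The groups were apart in all 4 comparisons, by 1.71 ± 0.27, 1.81 ± 0.27, 1.36 ± 0.27 and 1.33 ± 0.31 (adjusted p = 8.84e-06, 4.07e-06, 0.000248 and 0.00184). Slc29a1 measured 6.10, 6.10, 5.98 and 6.06 in LE/orl at GD18, against 6.92, 6.75, 6.60 and 6.54 in LE/wt. It was lower in LE/orl by −0.64 ± 0.11 at GD18 and −0.94 ± 0.11 at GD19 (adjusted p = 3.33e-05 and 1.43e-07), and was not called at GD20.

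The remaining members of family 35 also split. Slc35b1 measured 8.79, 9.06, 8.77 and 8.81 in LE/orl at GD18, against 9.38, 9.50, 9.60 and 9.08 in LE/wt (−0.53 ± 0.17, adjusted p = 0.0093). Slc35b2, which carries the sulfate donor PAPS into the Golgi, measured 5.98, 6.79, 6.66 and 5.72 in LE/orl at GD20 left, against 4.72, 4.66, 4.72 and 5.30 in LE/wt (1.44 ± 0.27, adjusted p = 0.000132). LE/wt replicates A, B and C lay under the log2 minimum of 5 there. With the covariate the Slc35b2 difference was 0.72 (adjusted p = 0.524). Slc35e3 was lower in LE/orl at GD20 left, with 6.69, 7.18, 7.01 and 7.41, against 8.38, 8.41, 8.46 and 8.39 in LE/wt (−1.34 ± 0.30, adjusted p = 0.000654). Its LE/orl values on the arrays that stand apart were 8.79 at GD18 and 8.92 at GD19, above the 6.89 to 7.70 of the remaining LE/orl ones at GD18 and GD19. Without those 2 arrays it was lower at GD18 and GD19 as well (−0.77 and −0.66, adjusted p = 0.00205 and 0.00699).

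**Figure D3:**
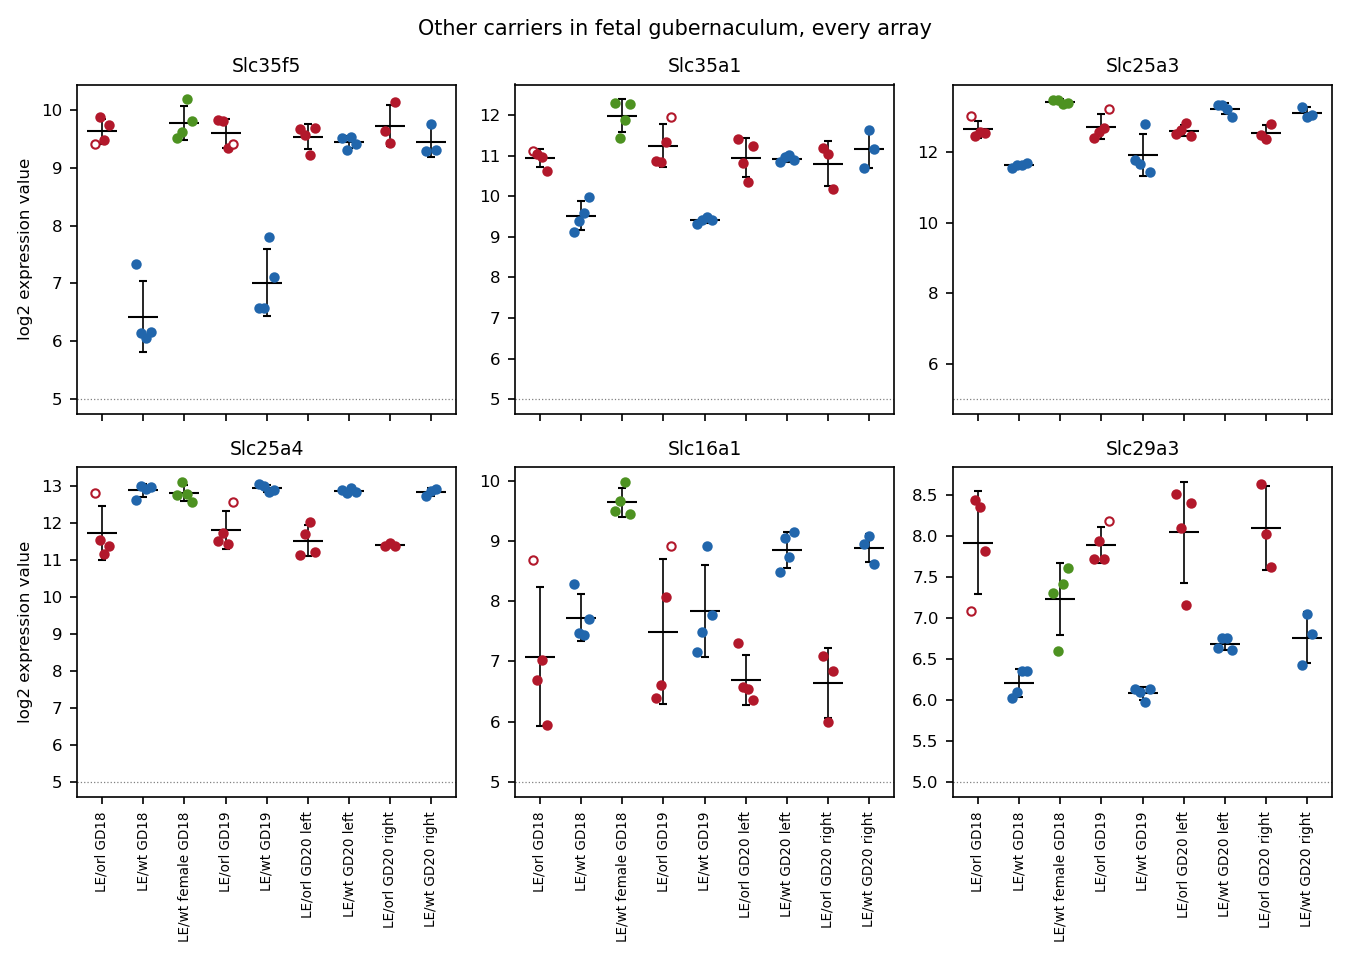
Log2 expression of 6 further carriers on each gubernaculum array, with red points for LE/orl, blue for male LE/wt, green for female LE/wt, black bars for the mean ± SD, open circles for the LE/orl arrays that stand apart (A of GD18, D of GD19), and a dotted line at the log2 minimum of 5. The open circles lie at or near the LE/wt level for Slc25a4 and Slc16a1. For Slc35f5 they lie near the other LE/orl points, and also within the 9.30 to 9.52 of LE/wt at GD20 left. For Slc35a1 the one at GD19 is the highest LE/orl point (11.95), and for Slc29a3 the one at GD18 is the lowest (7.08).

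Whether the strain difference itself moved with the day was tested as its value at GD20 minus its value at GD18 on the left side. It changed for 16 of 34 members, 5 upward and 11 downward, against 27.8% of all probe sets (10.4% upward, 17.3% downward) and 41.9% of the listed ones. The largest downward change was that of Slc35f5, −3.10 ± 0.36 (adjusted p = 1.32e-06), followed by Slc30a4 with −1.79 ± 0.60, Slc30a5 with −1.74 ± 0.31 and Slc25a3 with −1.63 ± 0.29 (adjusted p = 0.0253, 0.000177 and 0.000138). Upward changes were those of Slc4a3 (1.59 ± 0.50), Slc2a8 (1.39 ± 0.29), Slc30a7 (1.11 ± 0.35), Slc35b1 (0.88 ± 0.24) and Slc29a1 (0.56 ± 0.16), with adjusted p of 0.0172, 0.00069, 0.0187, 0.0069 and 0.00968. With the index as a covariate 16 members were called, 5 upward and 11 downward. No share of all probe sets is given for that fit, which leans on the 2 LE/orl arrays that stand apart. An F test over the 3 days called 15 members, against 26.7% of all and 40.4% of the listed ones.

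Each strain was then followed on its own. In LE/wt, 14 members rose and 9 fell between GD18 and GD20, against 44.7% of all probe sets called (24.7% higher, 20% lower) and 61.1% of the listed ones. In LE/orl 1 member, Slc25a25, fell, against 6.39% of all (2.63% lower) and 9.03% of the listed ones, and 8 of 34 passed an unadjusted p under 0.05. The members' median change was 0.46 in LE/wt and −0.05 in LE/orl. Most of the LE/wt change fell between GD19 and GD20, with 18 members called (11 higher, 7 lower), against 39.8% of all (21.7% higher, 18% lower) and 56% of the listed ones, while 0 were called between GD18 and GD19 (0.237% of all; 6 at an unadjusted p under 0.05). In LE/orl 0 members were called in either single-day step, against 0.101% and 0.0789% of all, with 2 and 3 at an unadjusted p under 0.05.

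Among the carriers that rose in LE/wt were Slc35f5, Slc35a1, Slc30a4, Slc30a5, Slc30a9, Slc39a10, Slc25a3, Slc25a17, Slc16a3, Slc38a2, Slc15a4, Slc20a2 and Slc24a3. Slc35f5 had 9.52, 9.30, 9.52 and 9.41 at GD20, against 7.34, 6.14, 6.05 and 6.17 at GD18, a rise of 3.01 ± 0.25 (adjusted p = 6.11e-10). Slc30a4 rose by 2.10 ± 0.42 to 8.05, 8.10, 8.02 and 8.18, and Slc30a5 by 1.97 ± 0.22 to 8.73, 8.66, 8.91 and 8.80 (adjusted p = 2e-04 and 5.46e-08). Slc16a3 had 8.17, 8.63, 7.92 and 7.81 at GD20, against 6.39, 6.00, 6.39 and 6.43 at GD18 (1.83 ± 0.34, adjusted p = 8.51e-05). Slc16a1 differed by 1.13 ± 0.47 between GD20 and GD18 and missed the threshold (adjusted p = 0.0504).

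The carriers that fell in LE/wt were Slc2a8, Slc1a3 1368565_at, Slc25a1, Slc25a25, Slc30a6, Slc30a7, Slc35b1, Slc35b2 and Slc29a1. Slc2a8 had 4.67, 4.72, 5.64 and 5.24 at GD20, against 6.25, 6.59, 6.85 and 6.37 at GD18 (−1.45 ± 0.20, adjusted p = 1.63e-06). Slc30a7 had 6.81, 6.51, 6.56 and 6.52 at GD20, against 7.66, 7.74, 7.63 and 8.07 at GD18 (−1.17 ± 0.25, adjusted p = 0.000351). Slc35b1 had 8.15, 8.01, 8.44 and 8.25 at GD20, against 9.38, 9.50, 9.60 and 9.08 at GD18 (−1.18 ± 0.17, adjusted p = 2.18e-06). Slc25a25 fell in both strains: by −1.16 ± 0.22 in LE/wt, with 6.20, 6.00, 6.13 and 6.17 at GD20, and by −0.97 ± 0.22 in LE/orl, with 6.14, 6.03, 6.50 and 6.54 at GD20 against 7.07, 7.14, 7.44 and 7.44 at GD18 (adjusted p = 9.55e-05 and 0.00586).

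At GD19 LE/wt replicate C stood closer to GD20 for several of these carriers. It measured 12.80 for Slc25a3, beside 11.77, 11.66 and 11.44, 7.44 for Slc30a4, beside 6.35, 5.15 and 5.65, and 8.92 for Slc16a1, beside 7.15, 7.50 and 7.78. Its part in the GD19 results was not tested beyond leaving out each array in turn, which gave 16 to 21 called members between GD19 and GD20.

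**Figure D4:**
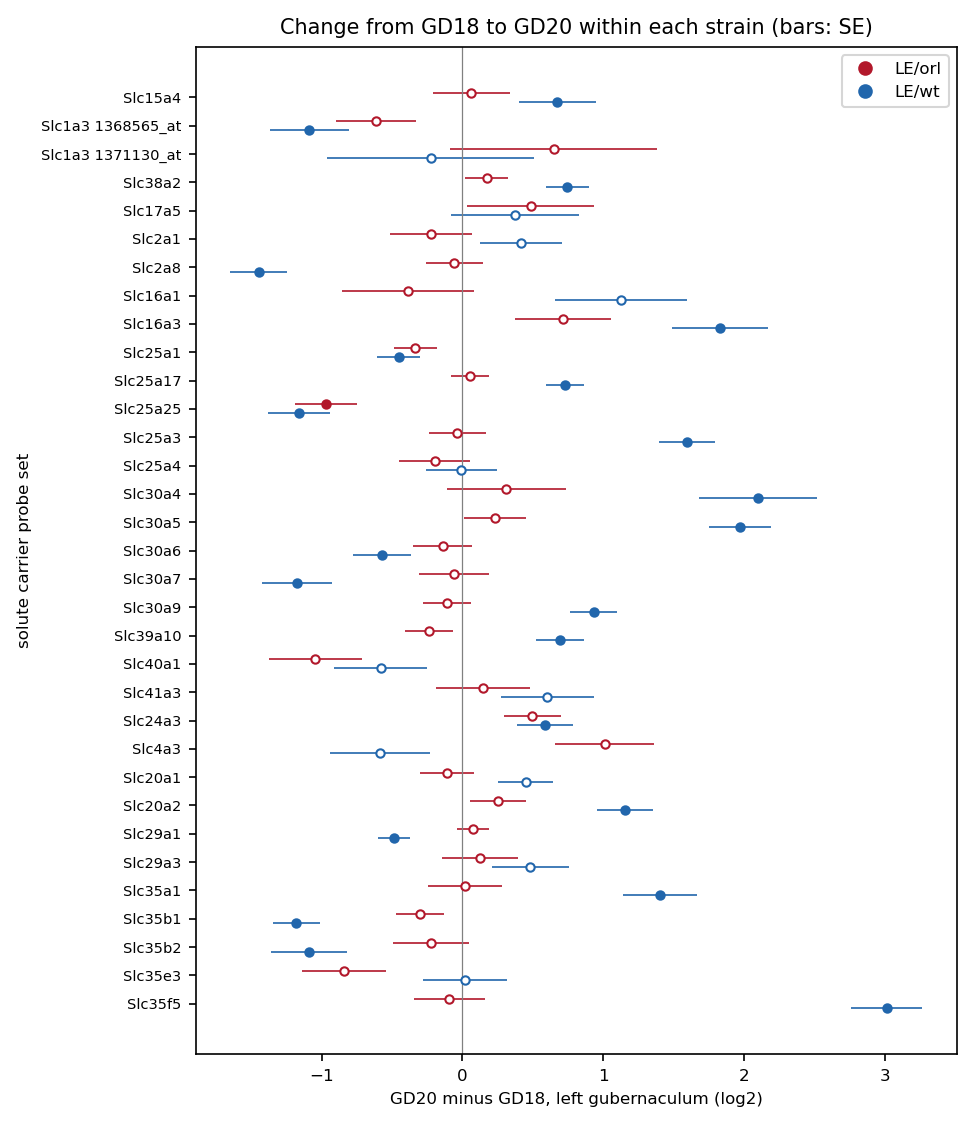
Change of 33 of the 34 solute carrier probe sets from GD18 to GD20 in left gubernaculum (log2, later minus earlier day), with LE/orl in red and LE/wt in blue, bars of 1 SE, and filled points called at an adjusted p under 0.05. LE/wt points spread from −1.45 for Slc2a8 to 3.01 for Slc35f5, while Slc25a25 is the single filled LE/orl point.

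Male and female gubernacula part at about GD18, and the male LE/wt arrays of that day were set against female ones. In males 20 members were lower and 7 higher, against 53.1% of all probe sets called (29.5% lower, 23.6% higher) and 65.3% of the listed ones, and the members' median difference was −0.69, against −0.06 over all. Slc35f5 measured 7.34, 6.14, 6.05 and 6.17 in males, against 9.52, 9.61, 10.18 and 9.81 in females (−3.35 ± 0.25, adjusted p = 3e-11). Slc35a1 was lower in males by −2.45 ± 0.26, with 9.12, 9.39, 9.60 and 9.99, against 12.30, 11.44, 11.88 and 12.28 in females (adjusted p = 1.36e-08). Ferroportin, Slc40a1, measured 7.60, 7.82, 7.64 and 7.70 in males, against 10.04, 9.32, 9.89 and 9.90 in females, a difference of −2.10 ± 0.33 (adjusted p = 5.59e-06). In all of these the groups did not overlap.

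Slc16a1 was lower in males, with 8.29, 7.48, 7.44 and 7.71, against 9.50, 9.67, 9.99 and 9.45 in females (−1.92 ± 0.47, adjusted p = 0.00106). Of the 8 metal carriers, 6 were lower in males. The other metal carriers were higher in males: Slc30a7 measured 7.66, 7.74, 7.63 and 8.07 in males, against 5.40, 6.26, 5.10 and 5.18 in females (2.29 ± 0.25, adjusted p = 1.66e-08), and Slc30a6 was higher by 0.71 ± 0.21 (adjusted p = 0.0051). Slc1a3 1368565_at measured 7.39, 8.68, 8.21 and 8.20 in males, against 6.41, 6.33, 6.32 and 5.93 in females (1.87 ± 0.28, adjusted p = 2.85e-06). Slc25a25 and Slc2a8 were higher in males by 1.01 ± 0.22 and 0.77 ± 0.20 (adjusted p = 0.000297 and 0.00208). All of these arrays are LE/wt, whose 5′ index lay between −4.73 and −3.46. Within that range it was −4.54, −3.93, −4.73 and −4.45 in females, and −4.23, −3.73, −3.75 and −3.82 in males of GD18. The female arrays combined both sides of a fetus and the male ones held the left side. The part of the sides in the sex differences was not tested.

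The 4 male LE/wt arrays of GD18 serve in 3 comparisons: against LE/orl, against females and against LE/wt at GD20. Values low or high in those 4 arrays therefore enter all 3, and the comparisons are not independent of each other. Side by side, Slc35f5 measured 9.63 ± 0.22 in LE/orl males and 9.78 ± 0.29 in LE/wt females at GD18, 9.44 ± 0.10 in LE/wt males at GD20 and 6.42 ± 0.61 in LE/wt males at GD18 (SD, n = 4 each). Slc30a5 measured 8.60 ± 0.21, 8.70 ± 0.10, 8.78 ± 0.10 and 6.80 ± 0.46 in the same 4 groups. Slc30a7 measured 6.89 ± 0.25, 5.49 ± 0.53, 6.60 ± 0.14 and 7.77 ± 0.21 in them. Slc29a1 measured 6.06 ± 0.06, 6.14 ± 0.02, 6.21 ± 0.09 and 6.70 ± 0.17.

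Right and left gubernacula of the same fetuses at GD20 gave no called member in LE/orl or in LE/wt. Of all 8872 probe sets 0 were called, and 0 members reached an unadjusted p under 0.05 in either strain. With the fetus as a block the counts were again 0 in both strains.

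In testis, 10 members stayed under the log2 minimum of 5 on all 20 arrays and were not tested: both Slc1a3 probe sets, Slc17a5, Slc2a8, Slc16a3, Slc30a7, Slc40a1, Slc4a3, Slc29a3 and Slc35b2. Per the labels, gubernaculum RNA was labelled with a kit of 2 amplification cycles and testis RNA with a kit of 1, so levels were not compared between the organs. Between strains, 3 of 24 members were lower in LE/orl at GD17 and 0 higher, against 18.5% of all probe sets called (11.2% lower). At GD19, 2 were lower and 0 higher, against 13.3% (8.1% lower).

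Slc41a3, the member that the authors' testis list holds, was lower in LE/orl testis on both days, the opposite direction to that in gubernaculum. At GD17 it measured 7.49, 7.27, 7.33, 7.27 and 7.17 in LE/orl, against 7.74, 7.84, 7.47, 7.57 and 7.55 in LE/wt, with a small overlap (−0.33 ± 0.11, adjusted p = 0.0392). GD19 gave 8.00, 8.40, 8.14, 8.69 and 8.11 in LE/orl, against 9.13, 9.20, 9.00, 9.20 and 9.24 in LE/wt. Every LE/orl array was below every LE/wt array (−0.89 ± 0.11, adjusted p = 1.17e-05). The difference at GD19 exceeded that at GD17 (change −0.56 ± 0.15, adjusted p = 0.027).

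Slc29a1 was lower in LE/orl testis at GD19, with 6.37, 6.79, 6.52, 6.69 and 6.81, against 6.99, 7.02, 7.13, 6.93 and 7.16 in LE/wt (−0.41 ± 0.09, adjusted p = 0.00348). Slc38a2 was lower in LE/orl at GD17, with 8.87, 8.83, 8.82, 8.82 and 9.11, against 9.17, 9.13, 9.23, 9.14 and 9.35 in LE/wt (−0.31 ± 0.10, adjusted p = 0.0309). Slc25a17 was lower at GD17, with 7.52, 7.53, 7.52, 7.51 and 7.58 in LE/orl, against 7.84, 7.85, 7.72, 7.68 and 7.87 in LE/wt (−0.26 ± 0.06, adjusted p = 0.00672). The 3 calls at GD17 came down to 1 when LE/orl replicate B, C or D was left out. The strain difference moved between the days for 4 members, against 9.65% of all (4.94% upward, 4.7% downward): Slc41a3, Slc29a1 (−0.50 ± 0.12), Slc20a1 (−0.50 ± 0.14) and Slc38a2 (0.45 ± 0.14), with adjusted p of 0.0164, 0.0339 and 0.0448 for the last 3.

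Between GD17 and GD19 the testis changed more. In LE/orl 6 members rose and 10 fell (55.6% of all probe sets called, 25.3% up and 30.2% down), and in LE/wt 6 rose and 6 fell (41.6% of all, 18.9% up and 22.7% down). Slc41a3 rose by 0.96 ± 0.11 in LE/orl and 1.52 ± 0.11 in LE/wt (adjusted p = 2.73e-07 and 1.06e-09). Slc24a3 had 5.02, 5.42, 5.45, 5.65 and 5.83 at GD19 in LE/orl, against 4.52, 3.76, 3.32, 3.67 and 3.93 at GD17. It is counted as rising in both strains, but it reached the minimum of 5 on 10 testis arrays, all of GD19. Slc24a3 thus entered the test only through the day where it is high. With every GD17 value under the minimum, no size is given for its rise. Slc25a1 had 8.10, 8.08, 8.14, 8.02 and 7.77 at GD19 in LE/wt, against 7.74, 7.59, 7.61, 7.51 and 7.52 at GD17 (0.43 ± 0.10, adjusted p = 0.00154). Every GD19 array was above every GD17 one.

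Slc16a1 fell in both strains. It had 5.53, 5.68, 5.55, 5.76 and 6.12 at GD19 in LE/orl, against 7.13, 7.31, 7.53, 7.11 and 7.20 at GD17 (−1.53 ± 0.12, adjusted p = 1.7e-09). In LE/wt it had 6.10, 6.03, 5.64, 6.21 and 5.77 at GD19, against 7.03, 7.20, 7.30, 7.28 and 7.05 at GD17 (−1.22 ± 0.12, adjusted p = 9.83e-08). The days did not overlap in either strain. Slc20a1 fell by −0.66 ± 0.10 in LE/orl (adjusted p = 1.6e-05) and was not called in LE/wt. Among the zinc carriers of LE/orl, Slc30a5 had 5.63, 6.21, 5.93, 6.19 and 5.98 at GD19, against 6.23, 6.72, 6.59, 6.44 and 6.77 at GD17, a fall of −0.57 ± 0.13 (adjusted p = 0.00079). Slc39a10 went the other way, with 7.66, 7.29, 7.14, 7.56 and 7.36 at GD19, against 6.90, 6.91, 7.01, 7.13 and 7.11 at GD17 (0.39 ± 0.10, adjusted p = 0.00231). Neither pair of days overlapped. In LE/wt both missed the threshold (adjusted p = 0.149 and 0.309). Zinc carriers that fell in both strains were Slc30a6, by −0.32 ± 0.10 in LE/orl and −0.44 ± 0.10 in LE/wt, and Slc30a9, by −0.54 ± 0.13 and −0.43 ± 0.13 (adjusted p = 0.0104, 0.00153, 0.0015 and 0.013).

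**Figure D5:**
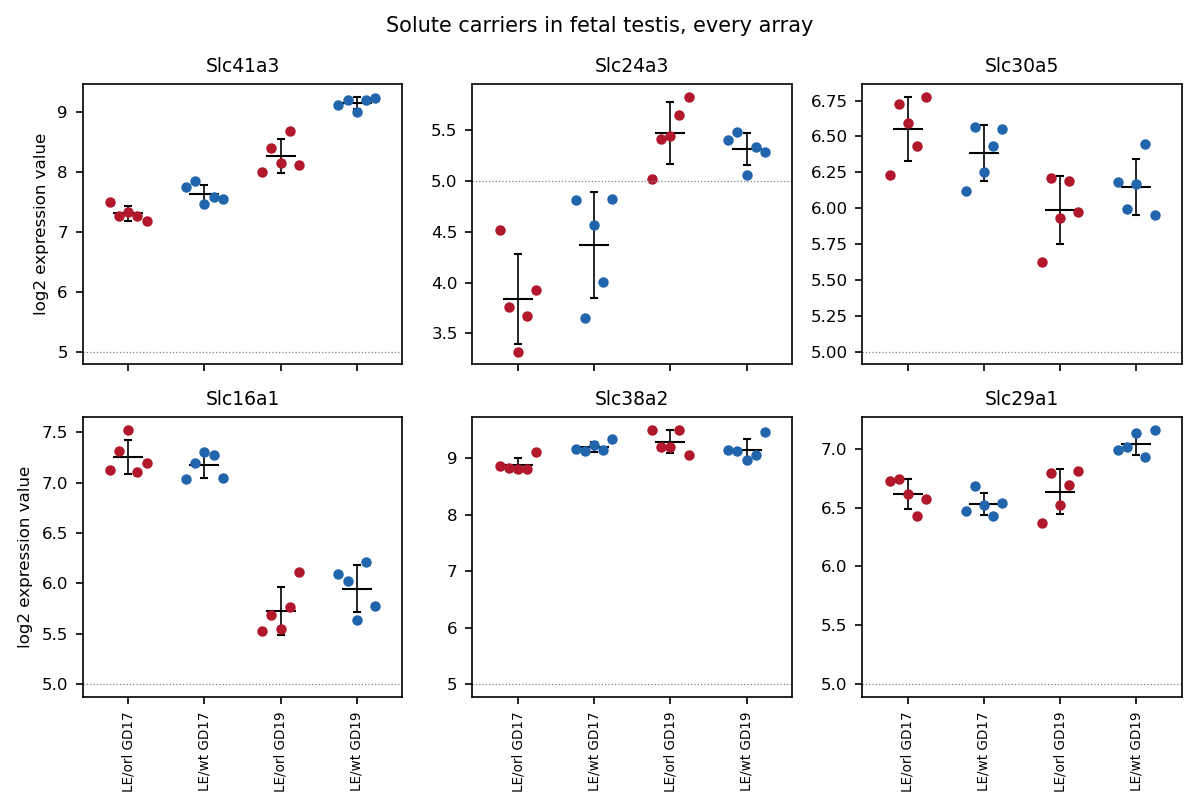
Log2 expression of 6 carriers on each testis array (n = 5 per group), with red points for LE/orl, blue for LE/wt, black bars for the mean ± SD and a dotted line at the log2 minimum of 5. The LE/orl points of Slc41a3 at GD19 lie between 8.00 and 8.69, all under the LE/wt points, and Slc16a1 is lower at GD19 than at GD17 in both strains.

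Other transport genes and cell markers named in the authors' lists were counted beside the carriers, with the backgrounds given above. In bulk tissue, fewer cells of a type and less RNA per cell cannot be told apart. Of 14 probe sets for glucose use, 1 was higher and 7 lower in LE/orl on GD18, while 10 were lower on the left at GD20. Of 20 for striated muscle, 2 exceeded and 10 fell short of LE/wt at GD18, and 0 and 12 did so at GD20 left, among them Tnnt3, a troponin of fast muscle, with −2.28 ± 0.37 (adjusted p = 3.1e-05). In LE/wt 15 of the 20 muscle probe sets and 7 of the 14 for glucose use rose between GD18 and GD20, among them Ckm, the muscle creatine kinase, by 3.00 ± 0.33 and Ldha, which makes lactate, by 1.88 ± 0.20 (adjusted p = 5.1e-08 and 2.27e-08). Muscle probe sets rose in LE/orl too, 12 of the 20 with 0 lower, against 6.39% of all probe sets called. Of the 14 for glucose use, 2 rose and 1 fell in LE/orl. Both probe sets for smooth muscle were lower in LE/orl at GD18 and at GD20 left. C1qc, the single macrophage marker, was lower by −4.23 ± 0.65 at GD18 (adjusted p = 5.9e-06), and it fell by −2.94 ± 0.65 in LE/wt between GD18 and GD20 (adjusted p = 0.000563). Of 2 endothelial markers, Lyve1 was higher and Cdh5 lower in LE/orl at GD18, and both were higher at GD20 left. Of 2 for red cells, 1 was lower in LE/orl at GD18 and 0 at GD20 left, while both fell between GD18 and GD20 in LE/orl and in LE/wt, with median changes of −3.76 and −3.82. Of 4 for nerve, 1 was higher and 1 lower at GD18, and of 10 for mesenchyme and fibroblasts, 4 were higher and 3 lower. The part of these cell types in the carriers' changes was not tested.

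Of 7 probe sets for partners of carriers, 0 were higher and 1 lower in LE/orl at GD18, and 0 higher and 6 lower at GD20 left. In LE/wt 5 of them rose between GD18 and GD20. The proton pump that acidifies vesicles had 9, of which 2 were higher and 5 lower on GD18 and 7 lower on the left at GD20. ABC transporters, which use ATP to move their load, had 5, of which 3 were higher on GD18, and 3 higher and 1 lower on the left at GD20. Abca3, a lipid pump, was higher by 2.27 ± 0.34 at GD18 and 1.69 ± 0.34 at GD20 left (adjusted p = 3.94e-06 and 0.000257). Of 6 for ion pumps, 4 were higher and 1 lower at GD18, and Atp2a2, a calcium pump of the sarcoplasmic reticulum, was higher on both of its probe sets, by 1.29 ± 0.25 and 1.02 ± 0.25 (adjusted p = 8.47e-05 and 0.00116).

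Of 3 probe sets for genes that bind or sense metals, 1 was higher and 2 lower in LE/orl at GD18, and 1 was higher and 1 lower at GD20 left, while all 3 fell in LE/wt between GD18 and GD20. Mtf1 was higher in LE/orl by 0.73 ± 0.26 at GD18 and by 1.82 ± 0.26 at GD20 left (adjusted p = 0.0183 and 8.78e-06). Ftl1, the light chain of the iron store ferritin, was lower by −2.95 ± 0.48 and −2.41 ± 0.48 (adjusted p = 1.44e-05 and 0.000263). Atox1, a copper chaperone, was lower by −0.83 ± 0.30 at GD18 (adjusted p = 0.0205) and missed the threshold at GD20 left (0.57 ± 0.30, adjusted p = 0.111). In testis at GD17, where Slc38a2, Slc25a17 and Slc41a3 were lower in LE/orl, 8 of 9 probe sets for mesenchyme and fibroblasts and 2 of 2 for Leydig cells were also lower, and 2 of 2 for germ cells were higher. At GD19 the counts were 2 lower and 1 higher of 9, 2 lower of 2 and 1 higher of 2. Their part in the carriers' differences was not tested.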

How the data were processed

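RNA of 34 gubernacula and 20 testes was measured on Affymetrix rat arrays. Per the submitters' processing notes, the deposited log2 values are GCRMA expression values, which correct for probe GC content and set arrays to a common scale; which arrays were normalised together, and the version, are not given in the sources used here. Deposited lists of the authors hold mean intensity per group and were used for membership and for 1 check of means, matched within 0.51; 2 columns of means over both sides at GD20 were not used. Per the deposited methods text, list members had passed limma or analysis of variance tests on these arrays. Probe set names are those of the array's annotation, and 32 of 34 symbols were current.

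1 member is counted but its values are not reported here. Members and gene lists were chosen with earlier results of these data known. Here limma 3.58.1 (R 4.3.3) was fitted to the log2 values, all groups of a tissue together, with no covariate, and p-values were adjusted by Benjamini-Hochberg over all probe sets of the contrast. SE is that of limma. Values on every array were given for up to 4 members with the highest and 4 with the lowest change among those called in a contrast whose groups did not overlap, for both Slc1a3 probe sets and for the 4 lowest adjusted p of the strain difference by day; others were added for their substance group after their values were seen. Groups are of separate fetuses, except left and right at GD20, where the same letter is the same fetus, so the letter pairs those samples. Their deviations correlated between −0.35 and 0.55. Between strains the letters share only a number. The number of arrays limits the precision. Alternatives were no or a higher minimum (7), quantile normalisation, only the groups compared, 1 probe set per gene, eBayes with trend and robust, the replicate letter as a block, the 5′ index as a covariate, leaving out both LE/orl arrays that stand apart, and leaving out each array. The script was tested on simulated data. Promoters were read from RefSeq (GRCr8) by symbol.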

Additional observations from a re-analysis of the deposited data

Results flagged for a closer look

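A sample stood far from the other arrays of its group, by Dixon's 95% criterion, in 32 of 374 pairs of a member and a group, where chance gives 18.7, or 1 in 20. In LE/orl gubernaculum, the 2 arrays that stand apart account for 5 of them. LE/orl GD18 replicate A stood apart for Slc38a2 (log2 10.98), Slc39a10 (9.71), Slc24a3 (5.52) and Slc35e3 (8.79), and LE/orl GD19 replicate D for Slc17a5 (5.03). Other LE/orl arrays were GD19 replicate C for Slc25a1 (8.93) and Slc30a5 (9.44), and GD18 replicate B for Slc35b1 (9.06).

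In male LE/wt gubernaculum the samples were GD18 replicate B for Slc16a3 (6.0) and Slc30a6 (8.73), GD18 replicate A for Slc35f5 (7.34), GD19 replicate D for Slc30a9 (7.18), GD19 replicate B for Slc35b1 (9.63), and at GD20 left replicate B for Slc17a5 (6.27), A for Slc30a7 (6.81), C for Slc30a9 (8.58) and D for Slc35b2 (5.3). In female gubernaculum they were replicate C for Slc38a2 (10.83), A for Slc2a1 (7.62), D for Slc2a8 (5.49) and B for Slc20a2 (8.42).

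In LE/orl testis at GD17 they were replicate E for Slc38a2 (9.11) and Slc25a17 (7.58), B for Slc17a5 (4.19) and A for Slc35e3 (6.48), and at GD19 replicate E for Slc2a8 (2.72) and Slc25a1 (8.28) and A for Slc30a9 (6.9) and Slc35b1 (7.6). In LE/wt testis at GD19 they were replicate B for Slc1a3 1368565_at (3.3) and Slc2a8 (2.69) and replicate E for Slc35a1 (6.89). The Slc1a3, Slc2a8 and Slc17a5 values in testis lay under the minimum of 5.

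The strain difference itself changed with the day for 16 members in gubernaculum, by limma at an adjusted p under 0.05. Among them, its value at GD20 minus that at GD18 was −3.1 for Slc35f5, −1.79 for Slc30a4, −1.74 for Slc30a5, −1.63 for Slc25a3, −1.38 for Slc35a1, −1.04 for Slc30a9, −0.93 for Slc39a10, −0.9 for Slc20a2, −0.68 for Slc25a17 and −0.57 for Slc38a2, which without both arrays that stand apart was −0.44 (adjusted p = 0.0698). It was 1.59 for Slc4a3, 1.39 for Slc2a8, 1.11 for Slc30a7, 0.88 for Slc35b1 and 0.56 for Slc29a1. In testis, GD19 minus GD17, it was −0.56 for Slc41a3, −0.5 for Slc20a1, −0.5 for Slc29a1 and 0.45 for Slc38a2.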

How the results depend on the processing

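Counts in this section come without the share of all probe sets in the same setting, and show only how the members' counts move. With the 5′ index as a covariate, 0 members were called at GD20 left and 0 at GD20 right, 12 for the mean over the left days (29 without the covariate) and 3 for LE/orl between GD18 and GD20 (1 without it). The covariate turned the sign for Slc1a3 1371130_at at GD20 left (−0.0083), at GD20 right (−1.10) and in the mean (−0.34), for Slc17a5 at GD20 left (−0.36) and right (−0.22), for Slc35e3 at GD20 left (0.029) and right (0.37), and in the mean for Slc16a1 (0.24) and Slc16a3 (0.33). The covariate fit leans on the 2 LE/orl arrays that stand apart. At GD20 the index separates the strains, so these fits cannot tell the 2 apart, and elsewhere the cause was not tested. A fit of only the groups compared called 0 members for LE/orl between GD18 and GD20. Without both LE/orl arrays that stand apart, 1 was called for LE/wt between GD18 and GD19. With no minimum, 4 were called between strains in testis at GD19, and 2 for the change of that difference with day.

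Leaving out each array in turn gave 19 to 24 called members at GD18, 20 to 24 at GD19, 17 to 19 at GD20 left, 12 to 14 at GD20 right, 28 to 30 for the mean, 23 to 26 for sex, 21 to 23 for LE/wt and 1 to 2 for LE/orl between GD18 and GD20, 13 to 17 for the change of the strain difference, and 12 to 16 for the F test. The count of 2 in LE/orl came without GD18 replicate D, GD20 left replicate B or GD20 left replicate D. In testis the ranges were 1 to 4 between strains at GD17, 2 to 4 at GD19 (4 without LE/orl GD19 replicate E), 1 to 5 for the change of that difference, 11 to 13 for LE/wt and 15 to 17 for LE/orl between days. With the replicate letter as a block, 18 members were called at GD20 left, 13 at GD20 right, 15 for the change of the strain difference and 3 for that in testis, and 0 for side in either strain. Signals near or under the minimum of 5, such as those of Slc4a3, Slc2a8 and Slc35b2 at GD20 in LE/wt, bound how well a difference is measured.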
